A study of Mus musculus with 58 samples.

Results

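The 9 genes described here carry out or control fatty acid oxidation and ketone body use: Cpt1a, Acadm, Bdh1, Oxct1, Ppara, Ppard, Ppargc1a, Angptl4 and Ucp2. They were chosen by symbol for their function, and each was found 1 time among the 52459 gene symbols of the count table. Their RNA was measured by sequencing of total RNA, depleted of ribosomal RNA, in 58 retinas, each retina giving 1 library. The diabetic mice were males of 4 months on a C57BL/6 background that carried Ins2Akita on 1 allele, a mutation of the insulin gene Ins2 that misfolds the hormone, destroys beta cells and leaves the animals with high blood glucose. The controls were male littermates of the same age without the mutation. All animals lived in 12 h of light and 12 h of darkness, and retinas were taken after perfusion at zeitgeber time (ZT, hours after lights on) 1, 5, 9, 13, 17 and 21, the night samples under dim red light. The control groups held 5, 6, 5, 5, 5 and 4 libraries in that order, 30 in all, and the diabetic groups held 5, 5, 5, 4, 4 and 5, 28 in all. The mutation is present in every cell of the body, so that the model does not act in the retina alone, and gene counts do not show it, so that the genotype labels were not checked by it.

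Long-chain fatty acids enter mitochondria as carnitine esters made by CPT1A and are then shortened by acyl-CoA dehydrogenases, among them ACADM, which acts on chains of medium length. Ketone bodies are interconverted by BDH1 and activated for burning by OXCT1. The nuclear receptors PPARα (Ppara) and PPARδ (Ppard) bind fatty acids and switch on genes of this pathway together with the coactivator PGC-1α (Ppargc1a), and the genes for ANGPTL4, a secreted inhibitor of lipoprotein lipase, and for UCP2, a carrier of the inner mitochondrial membrane, are known PPAR targets. In the eye, photoreceptors are known to burn fatty acids beside glucose, and the retinal pigment epithelium oxidises lipids of the outer segments it takes up and makes ketone bodies from them.

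The libraries held 7773117 to 22147398 counted reads, in the median 15260958 for control and 15471730 for diabetic retinas. All levels below are counts divided by DESeq2 size factors ("normalized counts"). The markers of rods were high in every library (summed level 527400 to 797100). Markers of the retinal pigment epithelium were present in every library and changed with time of day: their summed level ranged from 711 to 6065, 10 of the 12 markers had a median above 4, and the group medians ran from 816 at ZT5 to 3744 at ZT21 in diabetic and from 1678 at ZT1 to 3616 at ZT21 in control retinas. Lens markers summed to 25670 to 38840 in 3 control libraries (ZT1 replicate 6, ZT17 replicate 5 and ZT21 replicate 2) and to at most 886.5 in the other 55, where the medians of Mip, Lim2 and Birc7 were 0. The diabetic library ZT17 replicate 3 was the highest diabetic library in the sums of Müller glia, astrocyte, endothelial, microglia, bipolar, amacrine and ganglion cell markers. Blood markers summed to at most 190. In whole retinas, fewer cells of a type and less RNA per cell cannot be told apart.

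The 9 genes spanned a wide range of levels. Per kilobase of exon, Cpt1a was the most abundant with 388 ± 44.8 normalized counts per kb in control retinas (SD, n = 30) and 384 ± 46.2 in diabetic retinas (SD, n = 28). Oxct1 followed with 305 ± 17.3 and 311 ± 22.8, and Acadm with 268 ± 41.2 and 271 ± 41.0. Cpt1a lay above Oxct1 in 28 of 30 control and 28 of 28 diabetic libraries, and Oxct1 above Acadm in 25 of 30 and 23 of 28. Ppargc1a had 177 ± 11.6 and 181 ± 9.94, below Acadm in every library. Bdh1 (94.7 ± 9.06 and 99.3 ± 8.20) and Ppard (94.3 ± 19.2 and 99.5 ± 16.4) were neighbours that did not differ beyond their spread, as Bdh1 was the higher in 18 of 30 control and 14 of 28 diabetic libraries. Ppara had 74.7 ± 4.53 and 78.1 ± 7.8. Ucp2 had 24.9 ± 8.18 and 26.7 ± 7.26, and Angptl4 2.55 ± 1.08 and 3.32 ± 2.14. Per kb there was no overlap among Ppara, Ucp2 and Angptl4 in either genotype. The length used was the union of all annotated exons of a gene, 6.989 kb for Ucp2 and 3.836 kb for Ppara. The order per kb depends on this length. Before division by it, Ucp2 (100.5 to 398.0 in control, 120.5 to 308.1 in diabetic libraries) overlapped Ppara (250.9 to 321.4 and 242.3 to 357.2). Behind the values of Angptl4 stood 3 to 18 reads in a control library (median 8) and 4 to 47 in a diabetic library (median 11), against 1743 to 4560 reads of Cpt1a in a control library. Counting error was thus large for Angptl4 and small for Cpt1a.

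Cpt1a and Acadm were lower late in the night than by day in both genotypes. Control Cpt1a (mouse build GRCm38, chr19:3322334-3385733, plus strand) had 3143 ± 271 normalized counts at ZT1 (SD, n = 5), 3110 ± 126 at ZT5 (SD, n = 6), 3272 ± 279 at ZT9 (SD, n = 5), 3050 ± 138 at ZT13 (SD, n = 5), 2537 ± 177 at ZT17 (SD, n = 5) and 2562 ± 230 at ZT21 (SD, n = 4). The level was thus flat from ZT1 to ZT13 and lower at the last 2 time points. At ZT9 the 5 control libraries read 3008.9, 3224.9, 3004.7, 3594.3 and 3527.9. At ZT17 they read 2751.5, 2480.6, 2692.1, 2343.3 and 2416.3, and at ZT21 the 4 libraries read 2792.7, 2590.7, 2243.5 and 2620.4. All 9 control libraries of ZT17 and ZT21 lay below all 21 of the other times, whose lowest value was 2818.2 and highest 3594.3, a division of the day made after the values were seen.

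In diabetic retinas, Cpt1a had 2923 ± 242 normalized counts at ZT1 (SD, n = 5), 3230 ± 129 at ZT5 (SD, n = 5), 3345 ± 390 at ZT9 (SD, n = 5), 2757 ± 142 at ZT13 (SD, n = 4), 2666 ± 71.1 at ZT17 (SD, n = 4) and 2580 ± 124 at ZT21 (SD, n = 5). At ZT9 the libraries read 3169.5, 2953.6, 3098.7, 3619.9 and 3880.8, at ZT17 2713.0, 2657.8, 2569.0 and 2725.0, and at ZT21 2741.0, 2613.7, 2616.8, 2524.8 and 2406.1. The ZT9 libraries lay above those of ZT17 and ZT21 without overlap, but 2 of the 9 late libraries, not all of them, lay below every one of the 19 others, which began at 2526.6. The highest group mean was 1.29 times the lowest in control and 1.30 times in diabetic retinas.

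Acadm (chr3:153922357-153944632, minus strand) followed the same course with a larger swing. Its control means were 1097 ± 75.4 at ZT1 (SD, n = 5), 1149 ± 112 at ZT5 (SD, n = 6), 1169 ± 82.8 at ZT9 (SD, n = 5), 1139 ± 96.6 at ZT13 (SD, n = 5), 872 ± 67.8 at ZT17 (SD, n = 5) and 805 ± 48.6 at ZT21 (SD, n = 4). Its diabetic means were 1051 ± 83.8 at ZT1 (SD, n = 5), 1210 ± 56.7 at ZT5 (SD, n = 5), 1251 ± 139 at ZT9 (SD, n = 5), 975 ± 45.7 at ZT13 (SD, n = 4), 977 ± 95.6 at ZT17 (SD, n = 4) and 870 ± 53.3 at ZT21 (SD, n = 5). ZT9 was the peak and ZT21 the trough in both genotypes, with a ratio of means of 1.45 in control and 1.44 in diabetic retinas. The control libraries of ZT9 read 1121.9, 1184.8, 1052.3, 1226.6 and 1258.7, and those of ZT21 875.6, 764.7, 793.9 and 786.2. The diabetic libraries of ZT9 read 1162.7, 1118.2, 1185.7, 1331.9 and 1454.5, and those of ZT21 919.6, 837.8, 910.7, 888.1 and 793.4. Peak and trough did not overlap in either genotype.

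A gene was called rhythmic where its series fitted a wave of 24 h with a permutation p under 0.05 (empirical JTK_CYCLE, the rank test the study used, not adjusted for the number of genes) and its highest library was more than 125% of its lowest. By this rule 2 of the 9 genes were rhythmic in control retinas, Acadm and Cpt1a, where 21.8% of all 19086 expressed genes were called. In diabetic retinas 4 of the 9 were called, Acadm, Cpt1a, Ucp2 and Angptl4, where 23.9% of 19145 were called. Called in both genotypes were 2 of the 9, against 12.0% of 18903 genes. With so few genes, these shares are not far from those of all genes. Under a cosine fit in edgeR with p adjusted over all genes (Benjamini-Hochberg), the same 2 and the same 4 genes passed, where 11.6% of all genes passed in control and 13.0% in diabetic retinas. With the permutation p itself adjusted over all genes, Acadm and Cpt1a remained in both genotypes and Ucp2 and Angptl4 did not pass.

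For Acadm, the permutation p was 3e-05 in control and 1e-06 in diabetic retinas, the latter the smallest that 1000000 shuffled series can give. Its fitted 24 h cosine peaked at ZT7.58 ± 0.542 h in control and ZT7.05 ± 0.541 h in diabetic retinas (SE), with a relative amplitude (the height of the wave above its mean) of 17.4% ± 2.57 and 17.2% ± 2.42 (SE). For Cpt1a, the permutation p was 7.9e-05 and 7e-06. Its cosine peaked at ZT6.94 ± 0.650 h and ZT6.85 ± 0.586 h, with a relative amplitude of 12.2% ± 2.09 and 13.3% ± 2.03 (SE). Both genes kept their call in each of the 30 control and 28 diabetic series with 1 library left out, and without the libraries of any 1 time point, where the highest permutation p was 0.0155 for Cpt1a and 0.0133 for Acadm (control, without ZT17).

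**Figure D1:**
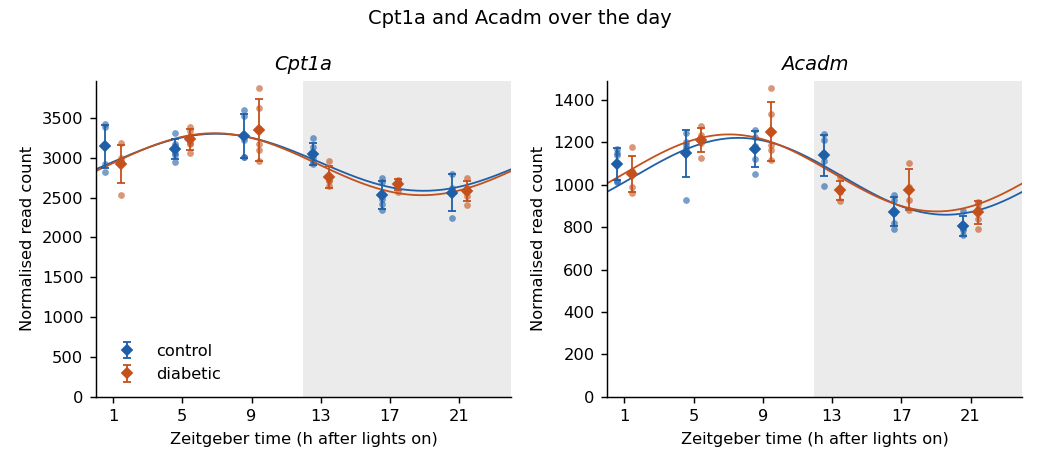
Normalized counts of Cpt1a and Acadm (vertical axis) against zeitgeber time in h, points for single libraries, diamonds with bars for group mean ± SD, and the fitted 24 h cosine, with the dark phase shaded. In both genotypes the highest group mean is at ZT9, and the libraries of ZT17 and ZT21 lie low, without overlap with ZT9 for Cpt1a in control retinas (2243.5 to 2792.7 against 3004.7 to 3594.3).

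The promoters of both genes are shown because they were the members with the largest relative amplitude among those rhythmic in both genotypes. Each runs 5′ to 3′ over the 250 bases before the start site (RefSeq, GRCm38.p6), in lower case, with matches to the motifs searched in capitals. The Acadm window (chr3:153944644-153944893, minus strand) holds CACGC, the reverse complement of the hypoxia-element core GCGTG, 47 bases before the start site, and CGTCA, the reverse complement of the CREB core TGACG, 21 bases before it. The Cpt1a window (chr19:3323051-3323300, plus strand) holds none of the motifs. This window lies inside the gene as located above, which begins at base 3322334, and the bases before that earlier start were not searched.
Acadm promoter: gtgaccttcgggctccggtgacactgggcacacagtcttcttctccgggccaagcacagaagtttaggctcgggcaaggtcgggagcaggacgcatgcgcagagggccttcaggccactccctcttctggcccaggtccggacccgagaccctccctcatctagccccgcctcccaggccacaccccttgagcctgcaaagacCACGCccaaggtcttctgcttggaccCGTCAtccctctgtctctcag
Cpt1a promoter: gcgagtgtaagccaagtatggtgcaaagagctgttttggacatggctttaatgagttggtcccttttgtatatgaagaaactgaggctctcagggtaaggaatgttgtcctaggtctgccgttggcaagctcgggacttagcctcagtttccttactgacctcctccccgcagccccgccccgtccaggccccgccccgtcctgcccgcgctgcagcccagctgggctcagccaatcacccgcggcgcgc
The search covered both strands of windows of 300 bases, from 250 before to 50 after the start site. The RefSeq windows used here were 9, for 8 of the 9 genes (Angptl4 was not analysed here), with a second start site for Bdh1. The clock E-box CACGTG, the D-box TTATGNAA, the full CREB site TGACGTCA, the orphan receptor site TNAAGGTCA and the PPAR type of direct repeat (DR1) were in none of the 9 windows, and in 7.15%, 3.38%, 1.79%, 1.28% and 0.381% of 32851 windows of all genes. TGACG, also part of the full CREB site, was in 5 of the 9 windows and in 20.8% of all windows, and GCGTG was in 6 of the 9 windows, those of Bdh1 both counted, and in 32.4% of all windows. These are matches of letters and show no binding.

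Cpt1a and Acadm moved together from library to library. Over all 58 libraries their log2 normalized counts had a Pearson r of 0.895, and Acadm was the gene most like Cpt1a of all genes with a mean of at least 50 normalized counts, as Cpt1a was the one most like Acadm. Within control retinas r was 0.894 and within diabetic retinas 0.905. After the mean of each time point was taken out, r was 0.694 in control and 0.675 in diabetic retinas. Med13l, a Mediator subunit, was next in likeness for both (r 0.877 with Cpt1a and 0.852 with Acadm), then Guca1b, a photoreceptor guanylate cyclase activator (0.833 with Acadm). The values of a library share its RNA and its scaling. The pigment epithelium sum had r = -0.423 with Cpt1a and -0.481 with Acadm over the 58 libraries, and 0.07 and 0.04 once group means were taken out. The bipolar cell sum had r = -0.498 with Cpt1a and -0.525 with Acadm (0.267 and 0.191 within groups), and the other 10 lists lay between -0.386 and 0.178 for both genes. Within groups the highest values were those of rods (0.429 with Cpt1a and 0.236 with Acadm) and, for Cpt1a, Müller glia (0.371). The part of these markers in the daily course was not tested.

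**Figure D2:**
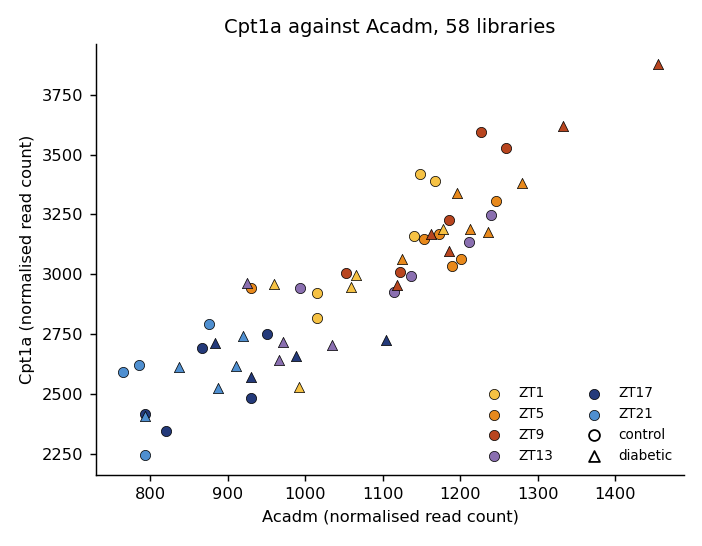
Normalized counts of Cpt1a (vertical axis) against those of Acadm (horizontal axis) in the 58 libraries, coloured by zeitgeber time, circles for control and triangles for diabetic retinas. The libraries form 1 rising band (r 0.895 of the log2 values), with those of ZT17 and ZT21 at its lower end.

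Among the PPAR targets, Ucp2 (chr7:100493337-100502020, plus strand) was called rhythmic in diabetic retinas alone, with its high values at the start and middle of the night. Diabetic libraries read 133.3, 128.8, 169.2, 155.4 and 171.6 normalized counts at ZT1, and 308.1, 177.4, 198.0 and 277.5 at ZT13. The 2 groups did not overlap, with means of 152 ± 19.8 (SD, n = 5) and 240 ± 62.5 (SD, n = 4), a ratio of 1.58. At ZT17 they read 265.7, 301.7, 188.7 and 175.8 (mean 233 ± 60.6, SD, n = 4). The other diabetic means were 157 ± 33.4 at ZT5, 172 ± 21.8 at ZT9 and 188 ± 41.9 at ZT21 (SD, n = 5 each). The permutation p was 0.00923 (0.0708 adjusted over all genes) and the adjusted edgeR cosine p 0.0032, with a relative amplitude of 24.8% ± 5.75 and a peak at ZT15.3 ± 0.853 h (SE). The permutation p stayed between 0.00166 and 0.0232 with any 1 library left out.

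In control retinas, Ucp2 had means of 152 ± 45.5 at ZT1 (SD, n = 5), 145 ± 16.6 at ZT5 (SD, n = 6), 195 ± 32.8 at ZT9 (SD, n = 5), 173 ± 47.8 at ZT13 (SD, n = 5), 215 ± 113 at ZT17 (SD, n = 5) and 168 ± 29.3 at ZT21 (SD, n = 4). The spread at ZT17 came from single libraries, which read 398.0, 143.3, 252.5, 145.1 and 135.9. The permutation p was 0.167 and the fitted peak ZT15.0 ± 2.14 h (SE), near that of the diabetic retinas, with a relative amplitude of 15.1% ± 8.07 (SE). Without the 3 control libraries high in lens markers the permutation p was 0.0427, past the threshold, with a relative amplitude of 19.7%. The difference in rhythm between the genotypes was not significant for Ucp2 (edgeR interaction test, adjusted p = 0.9999), so that the call in diabetic retinas alone does not show a difference. Ucp2 went with the microglia markers (r 0.582 over the 58 libraries, 0.623 within groups), the astrocyte markers (0.581 and 0.676), the Müller glia markers (0.552 and 0.469), the pigment epithelium markers (0.464 and 0.322), the ganglion cell markers (0.412 and 0.430) and the rod markers (0.336 and 0.521). The microglia sum had group medians of 297 at ZT1, 367 at ZT13 and 393 at ZT17 in diabetic retinas. Of its 8 markers 7 had a median above 4, and its sum ranged from 292 to 487 in control and 266 to 480 in diabetic retinas. The sum of the 4 astrocyte markers, all above 4, ranged from 3817 to 5946 and 4077 to 6552. The part of these markers in the course of Ucp2 was not tested. The genes most like Ucp2 were Igfbp5, a binding protein of insulin-like growth factors (r 0.807), the receptor Fgfr1 (0.797) and the junction gene Cgnl1 (0.784). Dnajb13 lies opposite Ucp2 and shares 305 exon bases with it, at a mean of only 0.336 normalized counts, so that few reads could be shared.

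Angptl4 (chr17:33773750-33781830, minus strand) had, in diabetic retinas, the largest relative amplitude of the 9 genes and the one with the largest error. Diabetic libraries read 3.79, 6.34, 6.55, 9.73 and 6.28 normalized counts at ZT5, 9.55 to 12.7 in 4 libraries and 33.85 in the fifth at ZT9, and 8.05, 18.02, 12.48 and 35.47 at ZT17. The ZT17 mean of 18.5 ± 12.0 (SD, n = 4) was 2.83 times the ZT5 mean of 6.54 ± 2.11 (SD, n = 5), with overlap between the groups, and 1 library each stood far above the rest at ZT9 and ZT17. The remaining diabetic means were 7.89 ± 3.40 at ZT1, 15.7 ± 10.2 at ZT9 and 10.9 ± 3.83 at ZT21 (SD, n = 5 each), and 12.6 ± 5.61 at ZT13 (SD, n = 4). The relative amplitude was 40.9% ± 16.1 with a peak at ZT14.5 ± 1.42 h (SE). The permutation p was 0.0161 (0.102 adjusted over all genes) and the adjusted edgeR cosine p 0.0387. In edgeR's test of any difference among the 6 times Angptl4 did not pass (adjusted p = 0.112), whereas diabetic Ucp2 (0.0370) and Acadm and Cpt1a in both genotypes did. The permutation p stayed between 0.00203 and 0.0316 with any 1 library left out, but without the libraries of ZT5 it was 0.140 and the call was lost.

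Control Angptl4 had means between 5.69 ± 1.89 at ZT1 (SD, n = 5) and 11.5 ± 3.28 at ZT21 (SD, n = 4), and at ZT17 its libraries read 17.26, 3.2, 10.94, 4.62 and 12.02. With a permutation p of 0.547 and a relative amplitude of 7.83% ± 10.9 (SE), no rhythm was detectable there at this depth. The relative amplitude was 33.1 ± 19.4 points higher in diabetic retinas (SE), and the test of a changed rhythm did not pass (edgeR, adjusted p = 0.9999). Angptl4 was most like Fkbp5, a classic glucocorticoid-induced gene (r 0.613), then Vangl2 and Selenbp1 (0.562 each). Its r with the pigment epithelium sum was 0.378, and 0.253 within groups, and the part of those markers was not tested.

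**Figure D3:**
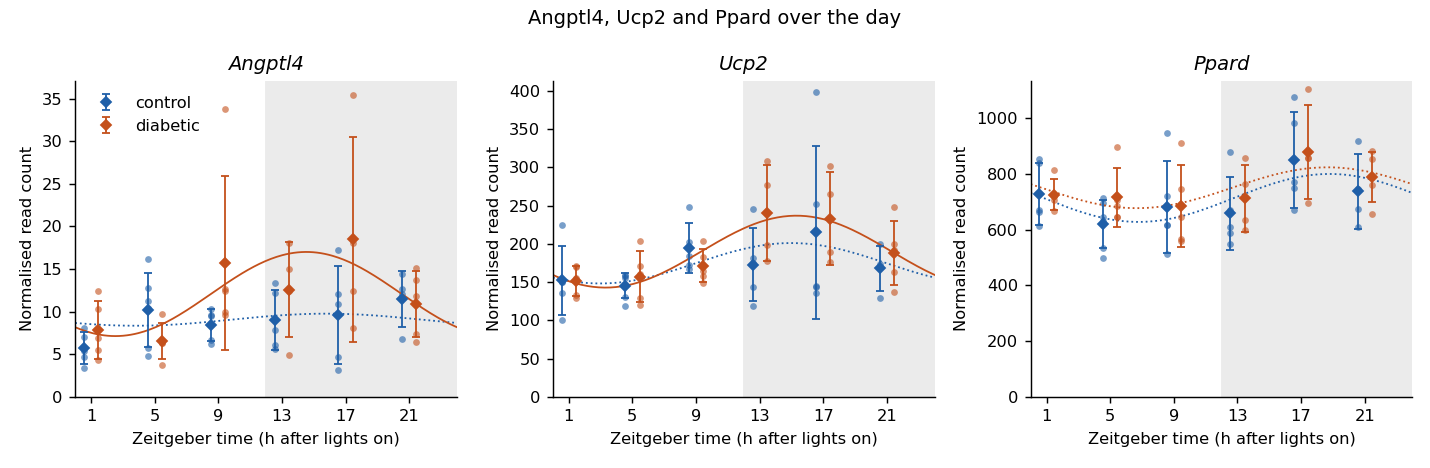
Normalized counts of Angptl4, Ucp2 and Ppard (vertical axes) against zeitgeber time in h, points for single libraries, diamonds with bars for group mean ± SD, with the 24 h cosine solid where rhythmic and dotted where not. Diabetic Ucp2 runs from a mean of 152 at ZT1 to 240 at ZT13, and Angptl4 libraries of 33.85 at ZT9 and 35.47 at ZT17 stand above the others.

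The receptors differed in how steady they were. Ppard (chr17:28232700-28301474, plus strand) spread widely between libraries of 1 group, with its highest mean at ZT17 in both genotypes. Control means were 729 ± 111 at ZT1 (SD, n = 5), 620 ± 86.4 at ZT5 (SD, n = 6), 682 ± 165 at ZT9 (SD, n = 5), 659 ± 131 at ZT13 (SD, n = 5), 850 ± 172 at ZT17 (SD, n = 5) and 737 ± 134 at ZT21 (SD, n = 4). Diabetic means were 726 ± 54.8, 716 ± 105 and 686 ± 147 at ZT1, ZT5 and ZT9 (SD, n = 5 each), 712 ± 119 and 878 ± 168 at ZT13 and ZT17 (SD, n = 4 each) and 789 ± 88.6 at ZT21 (SD, n = 5). At ZT17 the control libraries spread over 984.0, 670.0, 1075.6, 748.5 and 772.1 and the diabetic ones over 695.8, 1103.2, 857.1 and 855.8. Fitted peaks were at ZT18.8 ± 1.55 h and ZT18.7 ± 1.62 h (SE), with relative amplitudes of 12.1% ± 4.88 and 9.77% ± 4.09 (SE), close to those of Cpt1a but with larger errors, and permutation p of 0.103 and 0.0747.

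The call of Ppard changed with single libraries and with the fit. In the edgeR cosine fit with the replicate block, control Ppard passed (adjusted p = 0.032). The permutation p for Ppard was 0.0248 without control ZT9 replicate 4, 0.0441 without control ZT13 replicate 4 and 0.0384 without the control libraries of ZT9. In diabetic retinas it was 0.0132 without ZT9 replicate 4, 0.0316 without ZT13 replicate 5, 0.0387 without ZT5 replicate 4, 0.0400 without ZT17 replicate 1, and 0.0493 without either ZT9 replicate 5 or ZT21 replicate 2. Ppard went closely with genes such as Spen (r 0.935), Elfn1 (0.930) and Dctn1 (0.927), and with the astrocyte (0.712), Müller glia (0.612) and rod (0.550) marker sums, 0.641, 0.538 and 0.701 within groups. Within groups it also went with Bdh1 (r 0.663) and Ucp2 (0.604). Whether a property of the libraries lies behind these was not tested.

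Ppara (chr15:85734983-85802819, plus strand) and Ppargc1a (chr5:51454250-51567726, minus strand) were nearly flat. Ppara group means lay between 276 ± 16.0 (ZT5, SD, n = 6) and 299.7 ± 16.9 (ZT9, SD, n = 5) in control and between 286 ± 33.7 (ZT21, SD, n = 5) and 318 ± 35.3 (ZT5, SD, n = 5) in diabetic retinas. Its permutation p was 0.455 and 0.273. Ppargc1a group means lay between 1123 ± 64.0 (ZT5, SD, n = 6) and 1208 ± 29.98 (ZT13, SD, n = 5) in control and between 1158 ± 53.8 (ZT5, SD, n = 5) and 1258 ± 92.5 (ZT17, SD, n = 4) in diabetic retinas. Its relative amplitude was 2.53% ± 1.63 and 1.93% ± 1.46 (SE), with permutation p of 0.167 and 0.403. For diabetic Ppargc1a, the permutation p was 0.0475 without the libraries of ZT21. The genes most like them were Adat3 (r 0.632), Tbc1d20 (0.568) and Ppp4r1 (0.561) for Ppara, and Reep3 (0.658), Ankrd12 (0.649) and Lrrc8c (0.626) for Ppargc1a, a weaker likeness than between Cpt1a and Acadm.

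The ketone genes Oxct1 and Bdh1 were not called rhythmic in either genotype. Oxct1 (chr15:4026383-4155344, plus strand) had group means from 1086 ± 79.0 (ZT9, SD, n = 5) to 1176 ± 43.3 (ZT1, SD, n = 5) in control and from 1119 ± 65.3 (ZT13, SD, n = 4) to 1196 ± 55.8 (ZT21, SD, n = 5) in diabetic retinas, with permutation p of 0.0867 and 0.711. With 1 control library left out the permutation p for Oxct1 ran from 0.0173 (without ZT9 replicate 5) to 0.190, and it was also under 0.05 without ZT13 replicate 1 or ZT5 replicate 5. No call followed, as its highest control library was 1.24 times its lowest, under the 125% that the rule asks for. BC037032, which shares 467 exon bases with Oxct1, had a mean of 208 normalized counts, so that a part of the reads over these bases cannot be assigned with certainty, as the strand setting of the counting is not given in the sources used here. Oxct1 was most like Paics, an enzyme of purine synthesis (r 0.726), then Vkorc1l1 (0.715) and Zfyve9 (0.691). Bdh1 (chr16:31422280-31458901, plus strand) had control means from 357 ± 30.6 (ZT13, SD, n = 5) to 380 ± 50.2 (ZT17, SD, n = 5), with a relative amplitude of 0.929% ± 2.63 (SE) and a permutation p of 0.92. Diabetic Bdh1 had means from 358 ± 23.8 (ZT1, SD, n = 5) to 424 ± 42.3 (ZT17, SD, n = 4) and did not pass the test (permutation p 0.0604, relative amplitude 5.4% ± 2.07, SE). It was 0.0298 without ZT9 replicate 2, 0.0302 without ZT5 replicate 4, 0.0315 without ZT17 replicate 4, 0.0430 without ZT5 replicate 5, 0.0445 without ZT5 replicate 3, and 0.0496 and 0.0497 without ZT21 replicates 3 and 4, and 0.0247, 0.0404 and 0.0475 without the libraries of ZT5, ZT9 and ZT21. Bdh1 was most like Got2, the mitochondrial aspartate aminotransferase (r 0.746), then Sars (0.743) and Git1 (0.729), and had an r of 0.629 with the astrocyte marker sum (0.730 within groups), 0.517 with that of ganglion cells (0.548), 0.459 with that of Müller glia (0.517) and 0.458 with that of rods (0.712). The part of these markers was not tested. Gm15743 shares 533 exon bases with Bdh1 and had a mean of 25.3 normalized counts, so that its reads are in part uncertain too.

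**Figure D4:**
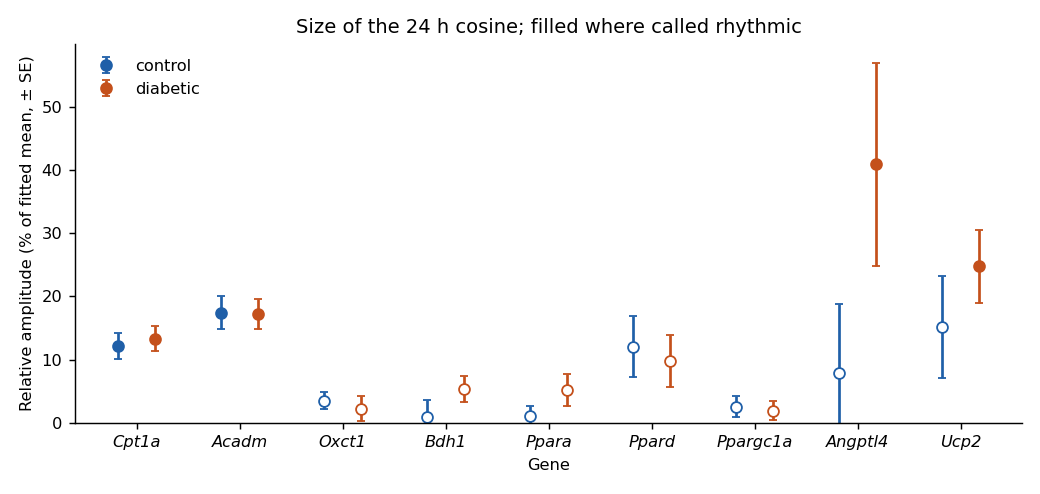
Relative amplitude of the fitted 24 h cosine in percent of the fitted mean, ± SE, for the 9 genes in control and diabetic retinas, with filled symbols where called rhythmic. Acadm (17.4% and 17.2%) and Cpt1a (12.2% and 13.3%) are filled in both genotypes, and Angptl4 (40.9%) and Ucp2 (24.8%) in diabetic retinas alone.

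The question of whether diabetes changed the daily course of these genes was put to a direct test, the interaction of genotype with the cosine and sine of 24 h in edgeR. None of the 9 passed, and 0% of the 18814 genes tested did, with 638 at an unadjusted p under 0.05. The unadjusted p was 0.961 for Cpt1a, 0.795 for Acadm, 0.122 for Angptl4, 0.295 for Bdh1, 0.30 for Oxct1, 0.187 for Ppara, 0.914 for Ppard, 0.726 for Ppargc1a and 0.613 for Ucp2, and the adjusted p 0.9999 for each. The peak of Cpt1a was shifted by -0.091 ± 0.875 h in diabetic against control retinas (SE) and that of Acadm by -0.531 ± 0.766 h, so that a shift of an hour could not have been told from none. The relative amplitude differed by 1.17 ± 2.91 points for Cpt1a and -0.23 ± 3.53 points for Acadm (SE).

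The level of the 9 genes was then compared between diabetic and control retinas over all time points with edgeR's quasi-likelihood test and Benjamini-Hochberg adjustment over 18814 genes. The study made this comparison with DESeq2, run here as an alternative. None of the 9 passed an adjusted p of 0.05, where 3.04% of all genes did (572, of which 307 were higher and 265 lower, and 2904 genes had an unadjusted p under 0.05). At this background 0 of 9 is no result about these genes. Log2 fold changes lay between -0.01 and 0.39 with a median of 0.06, against 0.00 for all genes. Angptl4 had the largest, at 0.39 ± 0.183 (SE, 95% interval 0.03 to 0.75, adjusted p = 0.286), from 9.03 ± 3.84 normalized counts in control (SD, n = 30) to 11.8 ± 7.57 in diabetic retinas (SD, n = 28). Without diabetic ZT17 replicate 5 its log2 fold change was 0.26, the lowest of the 58 fits with 1 library left out.

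The intervals of the abundant genes over all time points were narrow. They bound the mean difference over the day, not the difference at a single time. At ZT13 and ZT17 the log2 fold change of Acadm, -0.22 and 0.16, lay outside the interval given here for it. The 95% interval of the log2 fold change was -0.10 to 0.07 for Cpt1a, -0.10 to 0.13 for Acadm, -0.03 to 0.08 for Oxct1 and -0.01 to 0.08 for Ppargc1a. For Bdh1 it was 0.00 to 0.14 (adjusted p = 0.333), for Ppara 0.00 to 0.13 (adjusted 0.356), for Ppard -0.05 to 0.21 (adjusted 0.657) and for Ucp2 -0.10 to 0.30 (adjusted 0.713). The upper bound of 0.30 for Ucp2 was the largest of the 8 genes other than Angptl4.

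At single time points the genotypes differed even less clearly. None of the 9 genes passed at any time, where the share of all genes that passed was 0.0106% for ZT1, 0.0213% for ZT5, 0.00532% for ZT9, 0.170% for ZT17 and 0% for both ZT13 and ZT21. At an unadjusted p under 0.05, between 820 and 1665 of the 18814 genes were found at each time. The lowest adjusted p of a member was 0.363, for Angptl4 at ZT17, with a log2 fold change of 0.96 ± 0.372 (SE). Its control libraries there, at 3.2 to 17.26, overlapped the diabetic ones at 8.05 to 35.47. The opposite sign was seen at ZT5, with -0.60 ± 0.418 (SE).

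Acadm at ZT13 had the largest difference relative to its error, a log2 fold change of -0.22 ± 0.079 (SE, adjusted p = 0.845). Its control libraries read 1210.7, 1114.0, 1239.8, 992.7 and 1136.3 at ZT13 and its diabetic ones 924.4, 966.8, 1035.1 and 971.8, so that only the lowest control library fell into the diabetic range. At ZT17 the difference was of the opposite sign, 0.16 ± 0.078 (SE, adjusted p = 0.540), with control libraries at 950.4, 930.1, 866.9, 820.5 and 793.4 and diabetic ones at 883.4, 988.8, 930.5 and 1104.8. Cpt1a at ZT13 had a log2 fold change of the same sign, -0.15 (adjusted p = 0.9997). Ppara at ZT5 had a log2 fold change of 0.20 (adjusted p = 0.626) and Ucp2 at ZT13 one of 0.46 (adjusted p = 0.9997). Of the 54 comparisons of a gene at a time point, only Bdh1 at ZT13 had groups that did not overlap, where 1.34% of the comparisons of all tested genes did not, with control libraries at 370.4, 306.1, 351.0, 376.4 and 380.6 and diabetic ones at 420.5, 385.5, 383.5 and 386.8 (adjusted p = 0.9997).

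**Figure D5:**
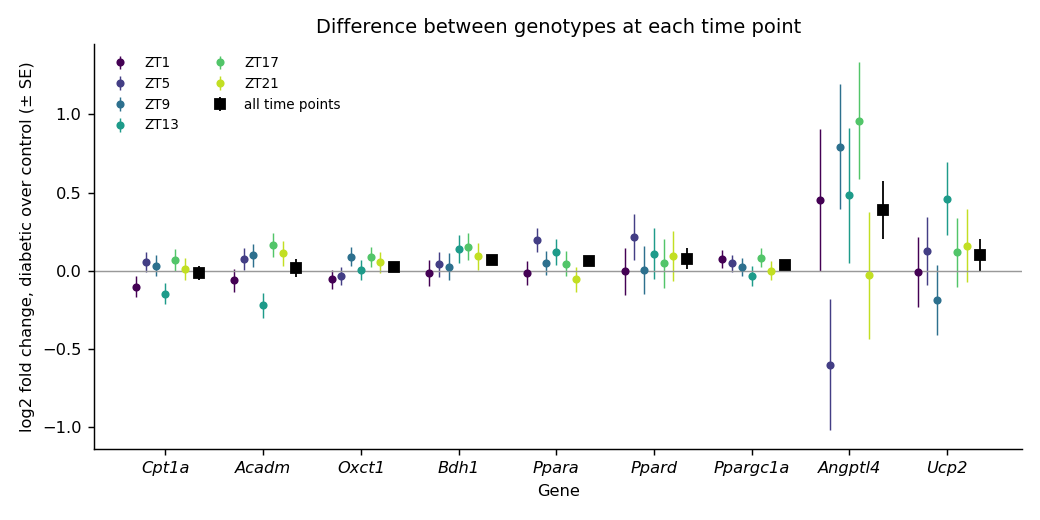
Log2 fold change of diabetic against control retinas ± SE for the 9 genes at each zeitgeber time and over all times. Angptl4 runs from -0.60 at ZT5 to 0.96 at ZT17 with wide bars, some bars of other genes lie off 0 (Acadm at ZT13, -0.22 ± 0.079, and Ppara at ZT5, 0.20 ± 0.074), and no value passes an adjusted p of 0.05.

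Around the 9 genes, 91 further genes of the same pathways were followed in 6 lists, of which 79 were abundant enough to be tested. Of these, 5 were higher and 1 lower in diabetic retinas (3.04% of all genes were called in either direction), with a median log2 fold change of 0.01. In the list of PPAR targets 3 of 14 tested genes rose and none fell, with a median of 0.06. Acot1, a cytosolic acyl-CoA thioesterase, had 15.8 ± 4.17 normalized counts in control (SD, n = 30) and 21.6 ± 7.62 in diabetic retinas (SD, n = 28), a log2 fold change of 0.45 ± 0.119 (SE, adjusted p = 0.0226, edgeR). It has a near-identical paralog, Acot2, so that its reads are uncertain. Txnip, an inhibitor of glucose uptake induced by glucose, had 106.5 ± 20.9 and 131 ± 29.1, a log2 fold change of 0.30 ± 0.079 (SE, adjusted p = 0.0208). Klf10, a zinc finger factor also under clock control, had 121 ± 16.5 and 138.5 ± 21.0, a log2 fold change of 0.20 ± 0.054 (SE, adjusted p = 0.0284).

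Of the 8 ketone genes tested, 1 rose and 1 fell. Slc16a6, a transporter known to export ketone bodies from liver, fell from 3061 ± 219 in control (SD, n = 30) to 2668 ± 356 normalized counts in diabetic retinas (SD, n = 28), a log2 fold change of -0.20 ± 0.040 (SE, adjusted p = 0.00198, edgeR). Acat1, the mitochondrial acetoacetyl-CoA thiolase, had 624 ± 53.8 and 676 ± 67.0, a log2 fold change of 0.12 ± 0.035 (SE, adjusted p = 0.0446), and lost its call in 34 of 58 fits with 1 library left out (adjusted p up to 0.0845) and in the fit with the replicate block. Of 24 genes of mitochondrial beta-oxidation 1 rose, Etfdh, which passes electrons from the acyl-CoA dehydrogenases to ubiquinone. It had 379 ± 30.1 and 412.5 ± 41.2, a log2 fold change of 0.13 ± 0.035 (SE, adjusted p = 0.0352), and lost its call in 11 of the 58 fits (adjusted p up to 0.0628). Cpt2, the inner-membrane partner of Cpt1a, did not pass over all times, with 210.6 ± 21.7 and 191.8 ± 24.9 normalized counts (SD, n = 30 and n = 28) and a log2 fold change of -0.13 ± 0.045 (SE, adjusted p = 0.0889). As the mean of the 6 within-time differences it passed, at -0.14 ± 0.041 (SE, adjusted p = 0.0397), and it also passed without control ZT9 replicate 3, or without diabetic ZT17 replicate 3, ZT21 replicate 1 or ZT21 replicate 3. Cpt2 is named after its values were seen. In the 58 fits with 1 library left out, the call of Klf10 was lost in 1, without diabetic ZT17 replicate 5 (adjusted p = 0.0521). Those of Acot1, Txnip and Slc16a6 were lost in none. In the fit without a filter, the calls of Klf10, Etfdh and Acat1 were lost. None of the 11 peroxisomal genes, 18 PPAR partners and 4 uncoupling genes tested passed. Without the 4 libraries that stand apart in their markers (the 3 control libraries high in lens markers and diabetic ZT17 replicate 3), only Slc16a6 and Txnip of the 6 kept their calls, at an adjusted p of 0.00407 and 0.0368. The adjusted p was then 0.0604 for Acot1, 0.0573 for Klf10, 0.0577 for Etfdh and 0.0865 for Acat1. Their log2 fold changes were then 0.416, 0.189, 0.126 and 0.115, near those with all libraries. No gene of the 6 lists passed at a single time point or in the test of a changed rhythm.

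By time of day, 18 of 79 expressed list genes were called rhythmic in control and 26 of 80 in diabetic retinas, 11 of them in both, by the permutation rule above. Among all expressed genes the shares were 21.8%, 23.9% and 12.0%, near those of the list genes in control retinas and in both, and below that in diabetic retinas, a difference that was not tested. Counts of single lists are given as a description. Mitochondrial beta-oxidation held 4 of 24 in control and 9 of 24 in diabetic retinas, the PPAR partners 8 and 9 of 18, the PPAR targets 2 and 4, the ketone genes 2 and 3, the peroxisomal genes 2 and 1, and the uncoupling genes none. Unlike Cpt1a and Acadm, 8 of the 11 genes rhythmic in both peaked in the dark phase in each genotype and 3 in the light, against 1186 and 1079 of the 2265 genes rhythmic in both in control retinas. Hadh, the dehydrogenase that acts after Acadm in the same spiral, peaked at ZT17.95 in control and ZT17.3 in diabetic retinas, with relative amplitudes of 12.8% ± 2.17 and 14.3% ± 2.85 (SE). Acad9, an acyl-CoA dehydrogenase and complex I assembly factor, peaked by day at ZT5.92 and ZT6.30 with 8.43% ± 2.37 and 9.17% ± 1.74 (SE). The peroxisomal oxidase Acox3 peaked at ZT8.15 and ZT4.48 with 10.1% ± 1.74 and 5.74% ± 1.63 (SE).

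Among the PPAR partners rhythmic in both genotypes, Esrrb, an estrogen-related receptor of rods, peaked at ZT18.5 in control and ZT17.3 in diabetic retinas with relative amplitudes of 22.3% ± 3.22 and 25.3% ± 2.73 (SE), and the retinoid X receptor Rxrg at ZT19.9 and ZT17.1 with 10.8% ± 2.98 and 11.4% ± 4.25 (SE). The pigment epithelium sum had an r of 0.58 with Esrrb over the 58 libraries (0.172 within groups) and 0.332 with Rxrg (0.147), and its part was not tested. Hilpda, which restrains lipolysis of lipid droplets, peaked at ZT17.9 and ZT16.4 with 13.3% ± 3.41 and 9.96% ± 3.47 (SE). With p adjusted over all genes, Rxrg passed in neither genotype (permutation 0.0911 and 0.176, edgeR cosine 0.0610 and 0.161). Acox3 and Hilpda then did not pass in diabetic retinas (permutation 0.121 and 0.152, cosine 0.0881 and 0.138), and Acad9 passed in control retinas by the cosine alone (0.0333, permutation 0.0771). The 12 list genes left untested for low counts included Fgf21, Pparg, Cyp4a10, Cyp4a14, Ucp1 and Ucp3.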

How the data were processed

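The authors deposited 1 table of raw counts per gene for the 58 libraries. According to the study's methods and the submitters' processing notes, reads were aligned with STAR 2.7.4a to GRCm38.p5 and counted with HTSeq 0.11.1 on Gencode M15, and DESeq2 1.26.0 was used. All 58 columns were matched to samples by name, with 0 columns left unused. No pair of replicates agreed within sampling noise (113 pairs). Here edgeR 4.0.16 (TMM, filterByExpr, quasi-likelihood, R 4.3.3) tested genotype over all times, at each time and by 24 h cosine terms over all genes. Empirical JTK_CYCLE was written anew in Python 3.11.15 (24 h period, phases and widths in steps of 4 h, 1000000 shuffled series) and run on genes with a median above 4 normalized counts, with cosine fits by least squares. The study tested changed rhythms with another tool, DODR, on genes it had called rhythmic in either genotype, and reported differentially rhythmic genes. DODR was not used here, so that the test of a changed rhythm above differs from the study's in method and gene set. The edgeR fits were tested on simulated counts with known changes. Alternatives were other scaling (DESeq2 1.42.0), filters, tests, a replicate block and left-out libraries.

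The 9 genes and all lists were chosen with earlier results of these data known. From each pathway list, the genes past an adjusted p of 0.05 (at most 5) and the 2 with the largest control amplitude among those rhythmic in both genotypes are named, and for each of the 9 genes the 3 most like it by Pearson r. A result that the rule would name for 1 list is not reported here. The 6 untested genes named and the split of the day for Cpt1a were chosen after their values were seen. Nothing in the labels ties libraries to litters or days, so p-values measure the spread between these samples.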

Additional observations from a re-analysis of the deposited data

Results flagged for a closer look

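Of 108 groups of 4 to 6 libraries (9 genes in 12 groups), 8 held 1 library that stood apart from the others by Dixon's criterion at 95%, in 6 genes, where chance flags about 1 in 20 groups. Angptl4 was high in diabetic ZT9 replicate 4, at 33.85 normalized counts against 9.55 to 12.7 in the other libraries of its group. Acadm was low in control ZT5 replicate 1 (929.6 against 1153.3 to 1245.9). Diabetic ZT13 replicate 1 was high for both ketone genes, with 420.5 for Bdh1 (others 383.5 to 386.8) and 1216.3 for Oxct1 (others 1076.4 to 1091.9), and Oxct1 was low in control ZT5 replicate 5 (1043.6 against 1137.3 to 1189.2). Ppara was high in control ZT17 replicate 5 (317.2 against 269.5 to 282.2) and low in control ZT21 replicate 4 (274.5 against 303.4 to 304.3). Ppard was high in diabetic ZT5 replicate 4 (897.0 against 645.5 to 705.2).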

How the results depend on the processing

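None of the 9 genes passed between genotypes, at a time point or in the changed rhythm test under any alternative run (0 under DESeq2, its size factors in edgeR, no filter, the replicate block, any genotype by time interaction, which was added after seeing the data, and with any 1 library left out). Acadm changed sign, to -0.005 on the log2 scale, without diabetic ZT9 replicate 5 (range -0.005 to 0.029 with 1 library left out). Members called rhythmic ranged from 2 to 3 in control and 4 to 6 in diabetic retinas with 1 library left out, and were 2 in diabetic retinas with the adjusted permutation p. Nothing in the labels says that a replicate number marks a shared animal or day. Same-numbered libraries of the genotypes tended to vary together (r over 0.1 in 20 of 26 pairs, lowest -0.459, median 0.262 against -0.07 for 114 other pairs), a hint from the data, not every pair, so the numbers were not taken as a pairing. With the replicate block in the cosine fit, 3 members passed in control (Ppard added, adjusted p 0.032) and 4 in diabetic retinas, and 5 list genes passed between genotypes (Acat1 lost). List genes called between genotypes were 6, and 3 without a filter or without diabetic ZT17 replicate 5 (3 to 7 with 1 library left out), and 7 as the mean of the 6 within-time differences (Cpt2 added). List genes rhythmic in control retinas were 18, and 10 by the cosine test, 9 with the adjusted permutation p and 6 by any difference among times (17 to 21 with 1 library left out). In diabetic retinas they were 26, and 11, 10 and 10 by the same tests, 16 without ZT1 and 16 without ZT17 (20 to 28). The causes were not tested. Without the 4 libraries that stand apart in marker sums, added after seeing the data, 0 members passed between genotypes (Acadm -0.001 on the log2 scale), 3 members were rhythmic in control (Ucp2 added) and 4 in diabetic retinas, and 2 list genes passed between genotypes. Reads of Angptl4 limit what can be said of it, and 4 to 6 libraries a group limit the comparisons at single times.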
